A study of Mus musculus with 28 samples.

Results

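Expression of 10 mast cell genes was followed across 5 sets of mouse adipose tissue libraries from Fgf13 knockout and control mice. The genes are Cma1, Tpsb2, Tpsab1, Cpa3, Mcpt4, Kit, Fcer1a, Ms4a2, Hdc and Gata2. They were taken as a named list of genes by which mast cells are recognised, matched by Ensembl identifier, and all 10 were found in each set. This list and the marker lists below were chosen with earlier results of these data known, so their counts are description and not independent support. The tables hold 55891 gene identifiers, or 29330 in the ieWAT set. Mast cells are resident immune cells of connective tissue and fat that store proteases and histamine in cytoplasmic granules. They carry IgE on a high affinity receptor, release the granules when that receptor is crosslinked, and depend on the receptor tyrosine kinase Kit for survival. Kit and Gata2 are not particular to mast cells: endothelial cells also use Gata2, and progenitors and melanocytes also use Kit.

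The series held 13 knockout and 15 control libraries of bulk RNA-seq, and was set up to look in fat for targets of Fgf13, an intracellular relative of the fibroblast growth factors. Inducible knockout was sampled in epididymal (ieWAT, 3 knockout and 3 control libraries) and subcutaneous white fat (isWAT, 2 and 3), while a constitutive knockout was sampled in subcutaneous white (sWAT, 3 and 3) and brown fat (BAT, 2 and 3). The knockout is named Fgf13∆Adipo, its controls are labelled WT, and both genotypes of these 4 sets were obese after 20 weeks of high fat feeding. A second epididymal set (eWAT, 3 and 3) is labelled Fgf13 KO and WT, with neither the kind of knockout nor the diet stated. The sources used here do not give the promoter or Cre line that drives the deletion, the animals' age and sex, or whether each library is a separate animal, so a p-value here measures the spread between libraries, which may be technical. Because these are whole tissue libraries, fewer mast cells and less RNA of these genes per cell cannot be told apart.

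Libraries of the ieWAT, isWAT, sWAT and BAT sets held 13490948 to 48812592 reads, and 1 read was worth 0.0205 to 0.0741 CPM (reads scaled to the library total). The eWAT set is in FPKM (CPM divided further by gene length) and its depth is unknown. Fgf13 averaged 27.1 ± 5.61 CPM in knockout and 44.3 ± 6.26 CPM in control ieWAT (SD, n = 3 each), and its knockout mean was also below the control mean in isWAT, sWAT and BAT, with no adjusted p under 0.05 in limma. In eWAT Fgf13 averaged 22.6 ± 4.76 FPKM in the libraries labelled knockout and 20.3 ± 7.39 FPKM in control (SD, n = 3 each), so the targeted gene did not tell the eWAT groups apart, and their libraries are called knockout only by label. Changes are knockout minus control, after log2(value + 1), with the standard error (SE). This scale understates the change of low genes. A gene is said to rise or fall where its Benjamini-Hochberg adjusted p in limma was under 0.05 over all genes tested in that set.

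The chymases and tryptases lie in clusters, with coordinates here from GENCODE M21 on GRCm38. The chymases Cma1 (chr14:55941451-55944675, minus strand) and Mcpt4 (chr14:56059629-56062313, minus strand) share a region of chromosome 14 with Cma2, Mcpt1, Mcpt2, Mcpt8 and Mcpt9. The tryptases Tpsab1 (chr17:25343245-25345562, minus strand) and Tpsb2 (chr17:25366305-25369098, plus strand) lie close together on chromosome 17. Fcer1a is on chromosome 1, Hdc on 2, Cpa3 on 3, Kit on 5, Gata2 on 6 and Ms4a2 on 19.

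GATA factors are known regulators of mast cell genes, so the promoters that hold a GATA match are shown with that of Cma1, which has none. RefSeq promoter windows on GRCm38.p6, 250 bases before to 50 bases after the start site, were at hand for 8 of the 10 members, leaving Tpsb2 and Tpsab1 without a sequence. Capitals mark AGATAA or TGATAA on either strand (TTATCT or TTATCA when read on the reverse strand). The windows are Cpa3 chr3:20242132-20242431, Mcpt4 chr14:56062261-56062560, Fcer1a chr1:173227180-173227479, Ms4a2 chr19:11623670-11623969 and Cma1 chr14:55944626-55944925, all on the minus strand and written 5′ to 3′ along the gene.
Cpa3: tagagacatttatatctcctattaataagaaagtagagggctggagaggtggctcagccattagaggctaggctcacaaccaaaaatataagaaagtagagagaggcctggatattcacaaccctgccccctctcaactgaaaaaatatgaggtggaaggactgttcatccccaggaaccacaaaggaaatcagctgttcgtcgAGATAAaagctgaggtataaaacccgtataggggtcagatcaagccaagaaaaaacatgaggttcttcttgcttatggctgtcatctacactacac
Mcpt4: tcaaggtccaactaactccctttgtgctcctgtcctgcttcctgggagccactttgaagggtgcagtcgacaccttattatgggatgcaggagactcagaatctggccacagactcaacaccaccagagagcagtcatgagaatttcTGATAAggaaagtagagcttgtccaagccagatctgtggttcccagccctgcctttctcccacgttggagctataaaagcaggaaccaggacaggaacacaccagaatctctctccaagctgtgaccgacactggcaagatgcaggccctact
Fcer1a: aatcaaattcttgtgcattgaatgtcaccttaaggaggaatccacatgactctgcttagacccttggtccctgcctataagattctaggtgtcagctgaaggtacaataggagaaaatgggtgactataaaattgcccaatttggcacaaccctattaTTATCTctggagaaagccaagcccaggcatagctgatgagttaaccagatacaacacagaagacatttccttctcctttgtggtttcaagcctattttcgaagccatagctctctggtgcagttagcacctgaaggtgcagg
Ms4a2: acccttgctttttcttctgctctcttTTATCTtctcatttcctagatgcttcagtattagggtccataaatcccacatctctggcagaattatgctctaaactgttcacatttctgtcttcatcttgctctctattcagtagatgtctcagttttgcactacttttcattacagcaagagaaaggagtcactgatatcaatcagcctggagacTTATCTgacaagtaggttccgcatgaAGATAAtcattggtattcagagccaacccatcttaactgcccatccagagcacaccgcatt
Cma1: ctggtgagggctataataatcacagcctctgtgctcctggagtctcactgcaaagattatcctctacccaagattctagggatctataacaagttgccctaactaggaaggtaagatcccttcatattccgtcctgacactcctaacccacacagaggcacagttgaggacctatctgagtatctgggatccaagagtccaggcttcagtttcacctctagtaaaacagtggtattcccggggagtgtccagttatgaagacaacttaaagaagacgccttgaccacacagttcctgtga
The match in Cpa3 lies 46 bases before the start site, that in Mcpt4 103 bases and that in Fcer1a 92 bases before it. Ms4a2, which encodes the beta chain of the IgE receptor, has 3 matches, at 224, 37 and 11 bases before its start. The windows of Kit, Hdc and Gata2 held no match. Thus 4 of 8 members held the motif, in 4 of their 10 windows, where 18.6% of all 32851 windows of this length did. The E-box CANNTG occurred in 6 of the 8 members and in 72.3% of all windows. These 2 shares are not alike, since Kit and Gata2 count once as members but have 2 windows each. No E-box overlapped a GATA match in these members. These are matches of letters only, and no binding was measured.

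In the eWAT set most of the mast cell genes were lower in the libraries labelled knockout than in control. Of the 10 members, 7 fell (Cma1, Tpsb2, Tpsab1, Kit, Fcer1a, Ms4a2 and Hdc) and none rose, where 4.7% of the 13736 genes tested fell and 10.2% rose. Control libraries took Tpsab1 and Ms4a2 past the filter of 1 FPKM on low values, so these members could fall but hardly rise. In 9 of 10 members each library labelled knockout was below each control library, which was so for 19.6% of all genes tested. The members' median change was -2.72, against -0.03 over all genes, and a change of -2 or below was seen in 0.575% of all genes.

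Cma1, the mouse alpha chymase, had 20.7, 105 and 18.0 FPKM in the 3 eWAT libraries labelled knockout, against 214, 331 and 396 FPKM in control. The second of them was far above the other 2 of its group, yet below each control library. Cma1 fell, with a change of -3.12 (SE 0.73, limma adjusted p = 0.0497), and the control mean was 6.57 times the knockout mean. Tpsb2, a tryptase stored in granules, had 24.8, 110 and 19.6 FPKM in libraries labelled knockout, against 216, 343 and 477 FPKM in control. Its groups did not overlap and it fell by 3.08 (SE 0.73, limma adjusted p = 0.0494). Tpsab1, the other tryptase of the pair, was far lower in level, at 0.668, 2.40 and 0.411 FPKM in libraries labelled knockout and 7.39, 13.0 and 15.0 FPKM in control. It fell by 2.62 (SE 0.39, limma adjusted p = 0.0136), and its control mean was 10.2 times its knockout mean.

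Cpa3, the granule carboxypeptidase, had 15.4, 68.0 and 9.93 FPKM in eWAT libraries labelled knockout, against 129, 212 and 257 FPKM in control. Mcpt4, the chymase of connective tissue mast cells, had 23.9, 129 and 20.2 FPKM in libraries labelled knockout, against 196, 310 and 427 FPKM in control. In both genes the groups did not overlap, and again the second library labelled knockout was the highest of its group. Neither passed the threshold, with changes of -3.06 for Cpa3 (SE 0.76, limma adjusted p = 0.0561) and -2.86 for Mcpt4 (SE 0.79, limma adjusted p = 0.0716). Without the second library labelled knockout the change was -3.85 for Cpa3 and -3.69 for Mcpt4, and both then passed (limma adjusted p = 0.0157 each). The 5 proteases summed to 189 ± 195 FPKM in libraries labelled knockout and 1181 ± 406 FPKM in control (SD, n = 3 each).

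**Figure D1:**
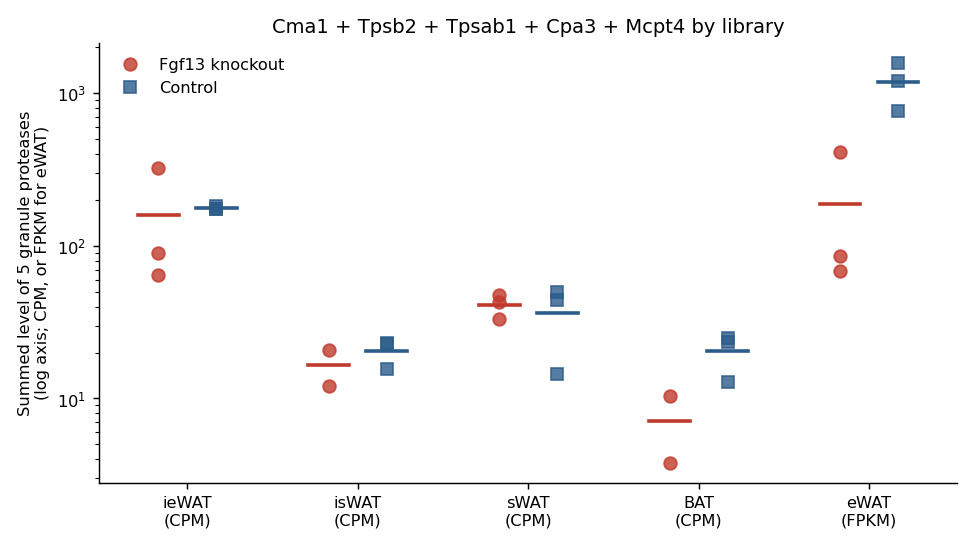
Summed level of the 5 granule proteases (Cma1, Tpsb2, Tpsab1, Cpa3, Mcpt4) in each library on a log axis, in CPM, or FPKM for eWAT. Points are libraries and bars group means, with knockout left of control. In eWAT the knockout libraries span 68.2 to 414 FPKM and the control libraries 762 to 1572 FPKM, while in ieWAT, isWAT and sWAT the groups overlap.

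The IgE receptor chains behaved alike in eWAT. Fcer1a, the alpha chain that binds IgE, had 2.24, 10.7 and 1.81 FPKM in libraries labelled knockout, against 22.6, 31.6 and 48.2 FPKM in control. It fell by 2.82 (SE 0.63, limma adjusted p = 0.0432). Ms4a2 had 0.364, 2.36 and 0.380 FPKM in libraries labelled knockout, against 3.26, 6.55 and 5.60 FPKM in control, and fell by 1.69 (SE 0.40, limma adjusted p = 0.0404). The second library labelled knockout was the highest of its group for both chains and remained below each control library.

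Kit, the receptor for stem cell factor, had 2.99, 6.92 and 3.51 FPKM in eWAT libraries labelled knockout, against 12.04, 15.5 and 18.7 FPKM in control. It fell by 1.63 (SE 0.28, limma adjusted p = 0.0183), a smaller difference than that of the proteases and without overlap of the groups. Hdc, which makes histamine from histidine, had 1.12, 3.51 and 1.34 FPKM in libraries labelled knockout, against 13.8, 7.60 and 12.4 FPKM in control. It fell by 2.08 (SE 0.34, limma adjusted p = 0.0157). Gata2, the transcription factor, had 2.95, 5.27 and 2.74 FPKM in libraries labelled knockout, against 4.08, 7.51 and 7.04 FPKM in control. Its second library labelled knockout was above the first control library, and the change of -0.64 did not pass (SE 0.27, limma adjusted p = 0.152).

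**Figure D2:**
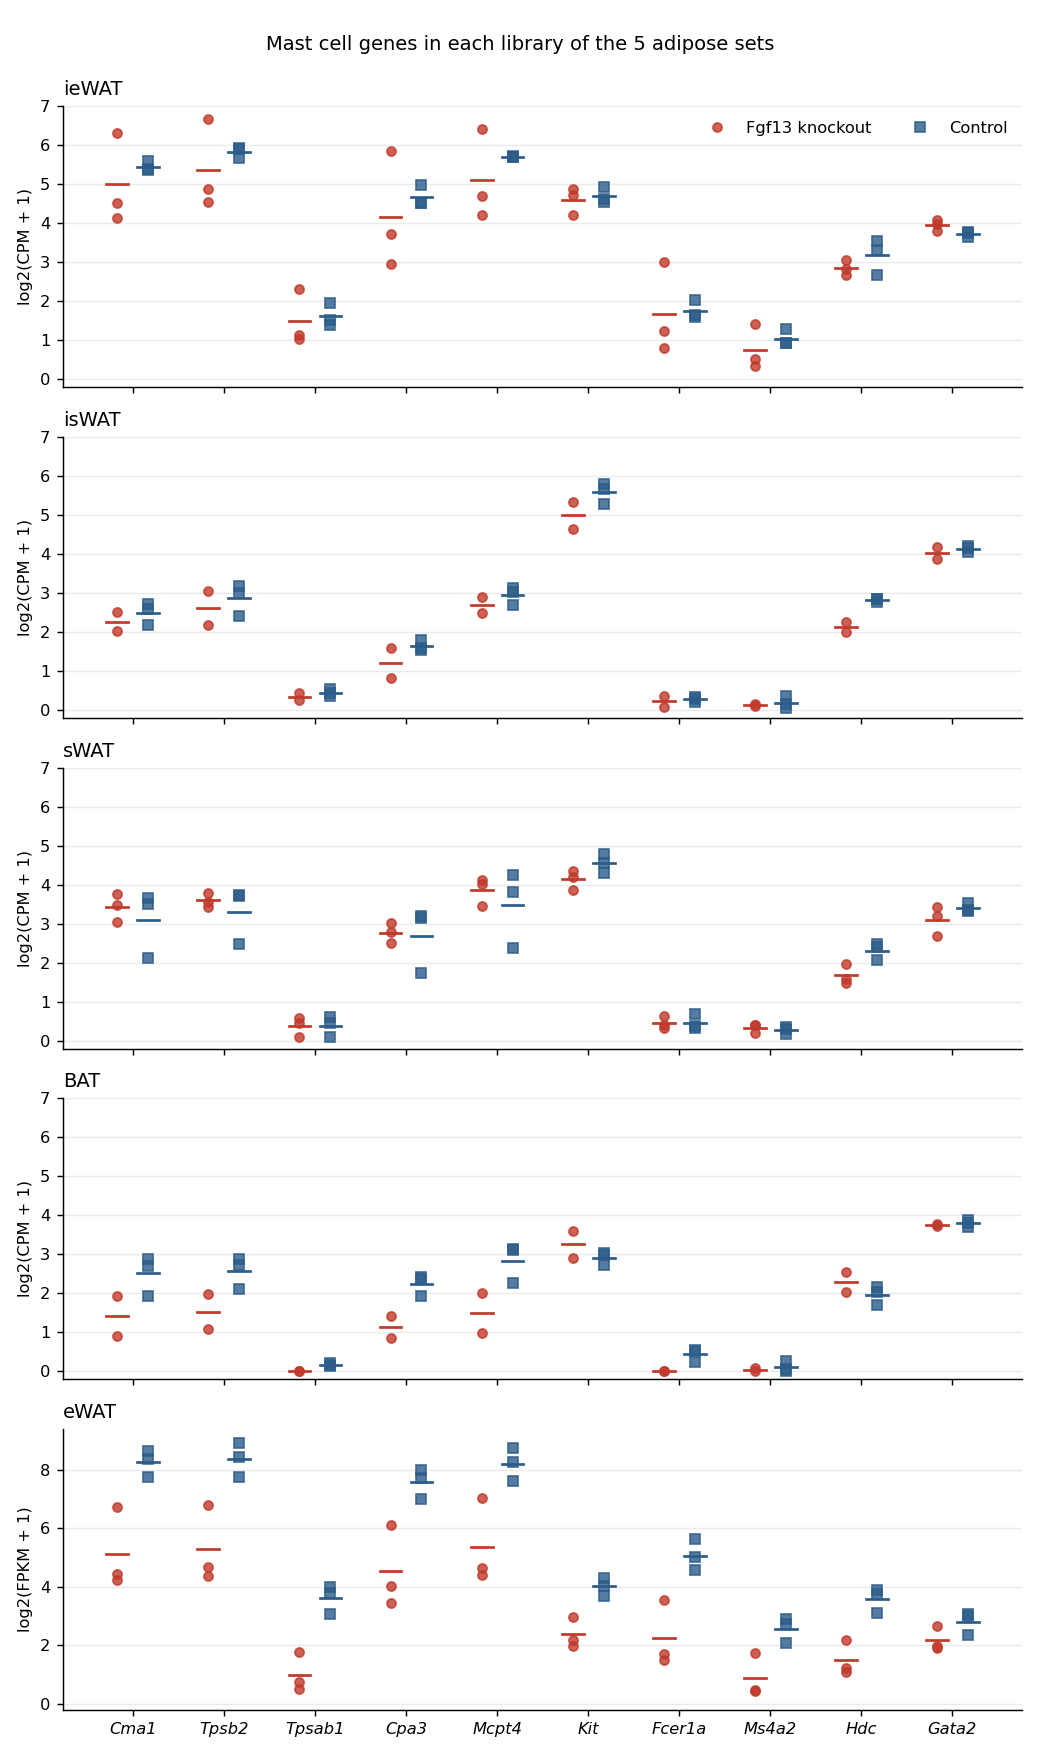
Level of each mast cell gene in each library on the log2(CPM + 1) scale, or log2(FPKM + 1) for eWAT, with circles for knockout left of squares for control and bars at group means. The eWAT panel shows 9 of 10 genes with no overlap of the groups, and the ieWAT panel shows 1 knockout library, knockout 3, high for the proteases and the IgE receptor chains.

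These eWAT calls rested on few libraries. Leaving out 1 library at a time left 0 to 9 of the 10 members called: 4 without control 1, 1 without control 2, 1 without control 3, 3 without knockout 1, 9 without knockout 2 and 0 without knockout 3. With all libraries 14.9% of the genes tested were called in either direction, and that share also varied widely between these fits. The member counts are not set against the share of their own fit, so they are not read as a result about the members. The direction did not depend on single libraries, since each member's change stayed below 0 in each of these fits. Cma1 ran from -3.91 to -2.67 and Hdc from -2.42 to -1.88 over these fits. With no filter on low values 2 members were called, and fewer genes in all were called than with it. A second table deposited for the same 6 samples, in TPM, gave changes below 0 for Cma1 (-2.14), Tpsb2 (-0.99), Kit (-1.12) and Hdc (-3.01), but no member was called in it and 1 gene was called in all. The lack of overlap did not carry over to the TPM values, where of the members only Hdc kept its groups apart. Cma1 had 10.1 TPM in control 2 and 126 TPM in knockout 2, and Kit 0.568 TPM in control 2 and 9.57 TPM in knockout 1. The TPM columns correlated with their namesakes in the FPKM table at only 0.695 to 0.952.

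Of 20 further mast cell genes (receptors, regulators and granule components), 14 passed the filter on low values in eWAT. Of these 10 fell and none rose, where 4.7% of all genes tested fell and 10.2% rose. Tph1, Slc18a2, Mrgprb2, Tpsg1, Adora3 and Rab27b averaged under 1 FPKM in libraries labelled knockout and above it in control. Control libraries thus took them past the filter of 1 FPKM, and such genes could fall but hardly rise. Tph1, which makes the precursor of serotonin, averaged 0.560 ± 0.583 FPKM in libraries labelled knockout and 10.7 ± 4.93 FPKM in control (SD, n = 3 each), and fell by 2.88 (SE 0.37, limma adjusted p = 0.0122). Il1rl1, the receptor for interleukin 33, averaged 5.15 ± 1.63 FPKM in libraries labelled knockout and 18.4 ± 4.28 FPKM in control (SD, n = 3 each), and fell by 1.66 (limma adjusted p = 0.0125). Mrgprb2, a mast cell receptor for basic peptides and drugs, fell by 1.67 (limma adjusted p = 0.0444), and Slc18a2, which loads amines into granules, fell by 1.32 (limma adjusted p = 0.0361). Mitf, a transcription factor that mast cells need, fell by 0.70 (limma adjusted p = 0.0211). Tpsg1, Slc45a3, Adora3, Ndst2 and Rab27b also fell. The list's median change was -1.30, and leaving out 1 library left 0 to 9 of its genes called. Mcpt1 and Mcpt2, proteases of mucosal mast cells, were at or below 0.0787 FPKM in each eWAT library.

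Of 11 signalling genes below the IgE receptor, 6 fell in eWAT (Fcer1g, Btk, Inpp5d, Fyn, Lat and Lyn) and none rose, where 4.7% of all genes tested fell. Their median change was -0.66, near the -0.65 of macrophage markers, and which cells carry these transcripts was not tested. Plcg1, a phospholipase, had a change of 0.33 that did not pass (limma adjusted p = 0.0982), and Gab2, an adaptor, one of -0.024. Fcer1g, the gamma chain that the receptor shares with other Fc receptors of myeloid cells, averaged 352 ± 20.7 FPKM in libraries labelled knockout and 574 ± 99.1 FPKM in control (SD, n = 3 each), and fell by 0.69 (limma adjusted p = 0.0244). Lat, an adaptor of the receptor, fell by 1.11 (limma adjusted p = 0.0353). Of 6 eicosanoid genes tested, Alox5, Hpgds and Pla2g4a fell while Ltc4s, the leukotriene C4 synthase, rose by 1.03 (253 ± 14.7 FPKM in libraries labelled knockout and 123 ± 12.6 FPKM in control, SD, n = 3 each, limma adjusted p = 0.0122).

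Of 9 ligands that support or activate mast cells, 5 could be tested in eWAT and 1 fell, where 4.7% of all genes tested fell. Il33, an alarmin whose receptor is Il1rl1, averaged 5.17 ± 2.03 FPKM in libraries labelled knockout and 12.2 ± 1.09 FPKM in control (SD, n = 3 each), with a change of -1.14 (limma adjusted p = 0.0220). Kitl, the ligand of Kit, averaged 22.6 ± 2.79 FPKM in libraries labelled knockout and 26.0 ± 6.52 FPKM in control (SD, n = 3 each). Its change of -0.17 did not pass (limma adjusted p = 0.529).

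Markers of other cell types also differed between the eWAT groups. Basophils share Cpa3 and Fcer1a with mast cells, but Mcpt8, the defining protease of mouse basophils, was at or below 0.0485 FPKM in libraries labelled knockout and 0.127 FPKM in control. For the counts that follow, 4.7% of all genes tested in eWAT fell and 10.2% rose. Of the 4 basophil genes tested, Fcer1a, Prss34 and Cd200r3 fell. Cd200r3 averaged 0.79 FPKM in libraries labelled knockout and 3.36 FPKM in control, so control libraries took it past the filter. Macrophage markers summed to 3591 to 4187 FPKM in libraries labelled knockout and 5712 to 9166 FPKM in control, and 4 of 6 fell, with a median of -0.65. Adipocyte markers summed to 16250 to 20690 FPKM in libraries labelled knockout and 6981 to 8852 FPKM in control, and 5 of 5 rose, with a median of 1.22. Of 10 endothelial markers 6 rose, and none of the tested T cell, B cell, progenitor or mesothelial markers passed in either direction. The T cell list still had a median of -0.99 (6 of 6 tested below 0). The B cell and lymph node list had one of -1.11 (5 of 6), where 53.6% of all genes were below 0. Both lists had sums that overlapped between the groups. Progenitor and mesothelial medians were -0.22 and 0.215. The part of these differences in the level of the mast cell genes was not tested.

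**Figure D3:**
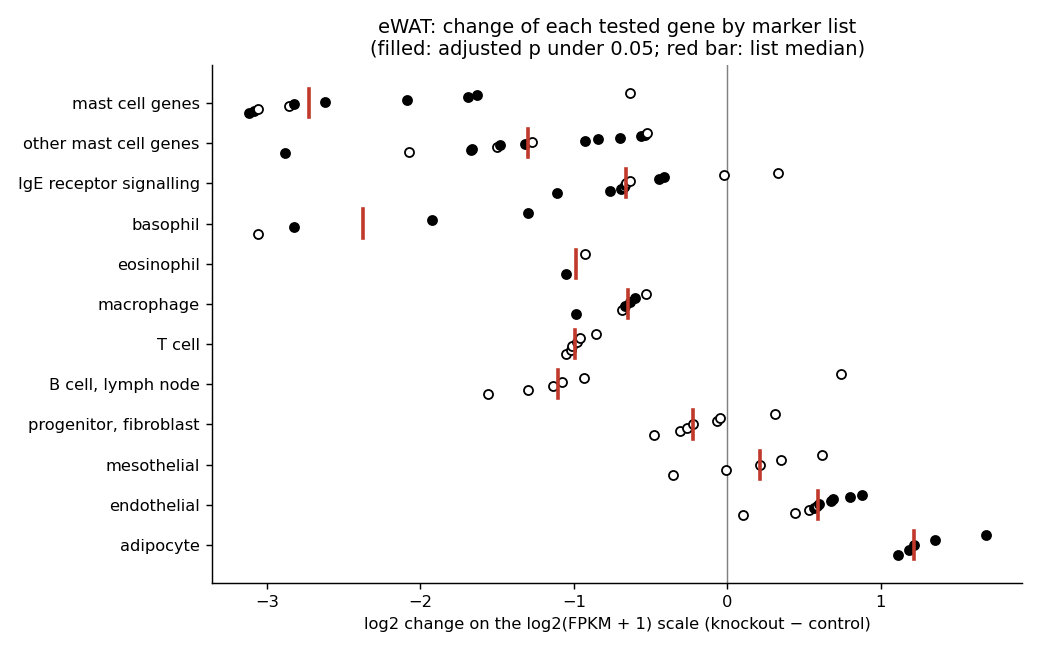
Change of each tested gene in eWAT, by marker list, on the log2(FPKM + 1) scale (knockout minus control). Filled points had a limma adjusted p under 0.05, and red bars are list medians. The mast cell genes have a median of -2.72, the other mast cell genes -1.30, macrophage markers -0.65 and adipocyte markers 1.22. The basophil list contains Cpa3 and Fcer1a.

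In ieWAT, the inducible knockout of epididymal fat, no mast cell gene passed the test. None of 9 members tested in limma (Ms4a2 was below the filter) passed in limma, edgeR or DESeq2, and none had an unadjusted p under 0.05 in limma. The background was 0% of 14749 genes called in limma, with 91 genes (0.617%) lower and 295 (2%) higher at an unadjusted p under 0.05. EdgeR called 0 genes and DESeq2 33 (0.185%). The members' median change was -0.32, against 0.02 over all genes.

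The ieWAT spread came mostly from 1 library. Cma1 had 22.1, 16.7 and 78.8 CPM in the 3 knockout libraries, against 41.1, 40.3 and 47.4 CPM in control. Cpa3 had 12.2, 6.80 and 56.3 CPM in knockout, against 30.6, 22.1 and 21.9 CPM in control. Fcer1a had 1.36, 0.737 and 7.04 CPM in knockout, against 3.11, 2.00 and 2.11 CPM in control. In each of these genes the third knockout library was above all controls and the other 2 were below them. Tpsb2, Tpsab1, Mcpt4 and Ms4a2 had the same order, so that the 5 proteases summed to 64.6 to 325 CPM in knockout but only 174 to 183 CPM in control.

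Without the third knockout library the ieWAT median of the members was -0.74, and Cma1 was at -1.12, still with no member called. The third library was also the highest of the knockout group in macrophage markers, at 6599 CPM against 4159 and 2907 CPM in the other knockout libraries and 3880 to 5638 CPM in control. It had the lowest sum of adipocyte markers, 11400 CPM, where the other knockout libraries had 16080 and 18380 CPM and control had 13220 to 14670 CPM. Whether these move the mast cell genes was not tested.

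Kit and Hdc did not follow that library. Kit had 17.4, 28.3 and 25.5 CPM in ieWAT knockout, against 29.6, 23.7 and 22.5 CPM in control. Hdc had 5.36, 6.16 and 7.31 CPM in knockout, against 10.6, 5.44 and 8.91 CPM in control. In both genes the groups overlapped. Gata2 had 16.0, 14.8 and 13.0 CPM in knockout, against 11.5, 12.5 and 12.7 CPM in control, each knockout library being above each control, as 3.43% of all genes were. Its change of 0.24 did not pass (SE 0.13, limma adjusted p = 1.00).

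**Figure D4:**
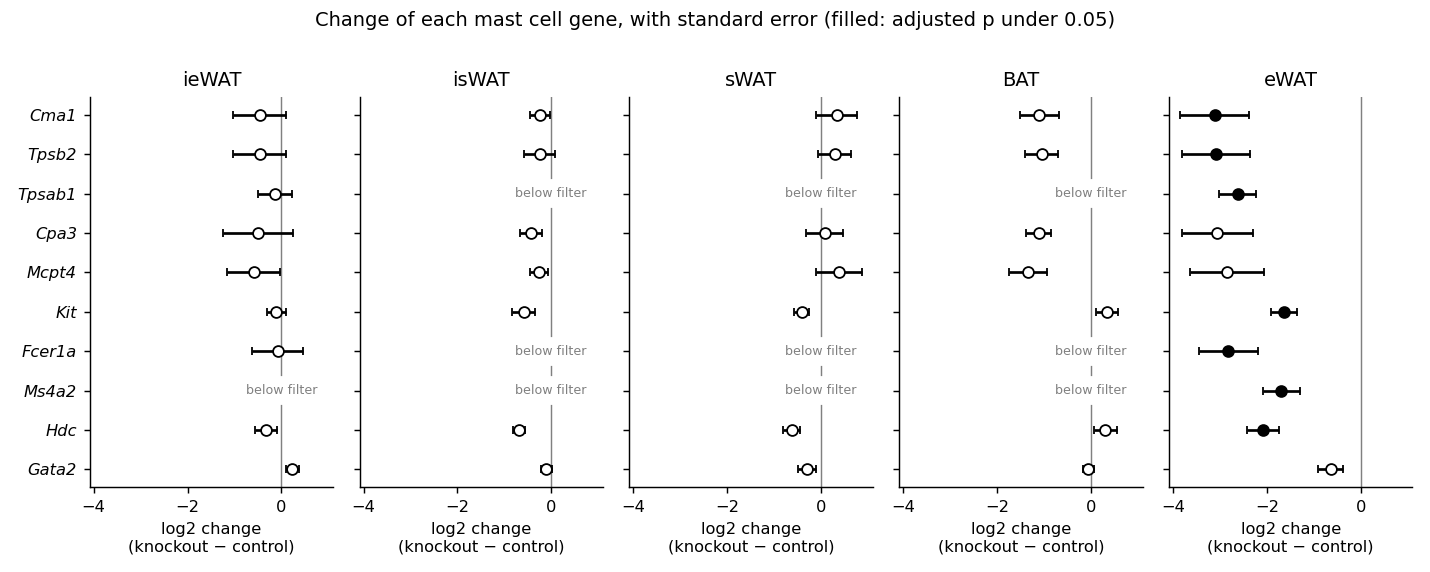
Change of each mast cell gene (knockout minus control, after log2(value + 1)) in the 5 sets, with bars of 1 standard error. Filled points had a limma adjusted p under 0.05, and all of them are in eWAT. Genes marked "below filter" were under 1 CPM in too many libraries to be tested.

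In isWAT, the inducible knockout of subcutaneous fat, 7 members were tested, and Tpsab1, Fcer1a and Ms4a2 were at most 0.443 CPM in each library. None of the 7 passed in limma or edgeR, with 0.00701% of genes called by limma and 0.00582% by edgeR. At an unadjusted p under 0.05 in limma 1 was lower, Hdc, as were 9.13% of all genes. DESeq2 called Hdc too, with 251 genes (2.11%) in all. Hdc had 3.02 and 3.77 CPM in knockout, against 5.78, 6.20 and 6.17 CPM in control. Its groups did not overlap, as in 19.4% of all genes tested in this direction, and its change was -0.69 (SE 0.13, limma adjusted p = 0.234) or -0.80 by DESeq2 (adjusted p = 0.0188).

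Kit in isWAT had 39.3 and 24.0 CPM in knockout, against 49.4, 54.9 and 37.6 CPM in control. The first knockout library lay inside the control range, and the change of -0.59 did not pass (SE 0.24, limma adjusted p = 0.383). The proteases overlapped throughout: Cma1 had 3.05 and 4.66 CPM in knockout, against 5.06, 5.60 and 3.50 CPM in control. Summed over 5 proteases, knockout had 12.2 and 20.9 CPM and control 15.6 to 23.2 CPM. Gata2 had 17.2 and 13.7 CPM in knockout, against 15.6, 17.5 and 16.6 CPM in control, again with overlap.

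In sWAT, the constitutive knockout of the same depot, none of 7 members passed in limma, edgeR or DESeq2, with 0.0217% of genes called by limma, 0.0205% by edgeR and 0.496% by DESeq2. At an unadjusted p under 0.05, 2 members, Hdc and Kit, were lower, as were 7.72% of all genes. Hdc had 1.79, 2.93 and 2.01 CPM in knockout, against 4.24, 3.19 and 4.53 CPM in control, without overlap, as in 12.3% of all genes. Its change was -0.63 (SE 0.19, limma adjusted p = 0.447). Kit had 17.2, 13.6 and 19.4 CPM in knockout, against 26.5, 22.5 and 18.7 CPM in control. Its groups overlapped, knockout 3 being above control 3, and its change was -0.41 (SE 0.16, limma adjusted p = 0.486). The sWAT libraries knockout 2 and knockout 3 held 1634 and 2043 CPM of skeletal muscle markers, where knockout 1 held 20.1 CPM and control libraries 15.5 to 27.8 CPM. The part of that tissue in the Kit, Hdc and Gata2 levels was not tested.

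The sWAT proteases turned on 1 control library. Cma1 had 10.2, 12.6 and 7.17 CPM in knockout, against 10.3, 11.6 and 3.37 CPM in control. Mcpt4 had 16.2, 15.1 and 9.87 CPM in knockout, against 13.0, 17.9 and 4.22 CPM in control. The third control library was the lowest of the 6 for both. With it, the changes of Cma1, Tpsb2 and Mcpt4 were 0.33, 0.29 and 0.38. Without it they were -0.15, -0.13 and -0.17, so the sign depended on this library. It also held 167 CPM of B cell and lymph node markers and 97.6 CPM of T cell markers, against at most 33.3 and 22.8 CPM in the other sWAT libraries. Whether that tissue lowered the protease share was not tested.

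In BAT, the constitutive knockout in brown fat, the proteases were low in both groups and lower in knockout, without a call in limma. None of 7 members passed in limma, edgeR or DESeq2, with 0.00755% of genes called by limma, 0% by edgeR and 5.08% by DESeq2. At an unadjusted p under 0.05 in limma 4 members were lower, as were 16.8% of all genes. Mcpt4 had 0.985 and 3.01 CPM in knockout (16 and 45 reads), against 7.77, 3.76 and 7.66 CPM in control. Its change was -1.34 (SE 0.41, limma adjusted p = 0.237). Cpa3 had 0.800 and 1.67 CPM in knockout, against 4.19, 2.82 and 4.35 CPM in control, with a change of -1.11 (SE 0.27, limma adjusted p = 0.237). Cma1 and Tpsb2 had changes of -1.10 and -1.05. In all 4 proteases the groups did not overlap, but 38.1% of all genes tested did the same in this set, and 76.4% had a change below 0.

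The median of all genes in BAT was -0.18, and 0.00 after TMM scaling, so the BAT changes are read against that shift. After TMM scaling Mcpt4 was at -1.19, Cpa3 at -0.98, Cma1 at -0.95 and Tpsb2 at -0.90. Without the second control library, 4 members (Cma1, Tpsb2, Cpa3 and Mcpt4) and 2201 genes were called by limma. With all libraries 1 of the 13253 genes tested was called. Macrophage markers summed to 112 and 115 CPM in knockout and 269 to 1117 CPM in control, and progenitor markers to 250 and 320 CPM in knockout and 401 to 907 CPM in control. The first knockout library held 0.923 CPM of skeletal muscle markers and the second 4894 CPM, against 5.87 to 988 CPM in control. Their part in the protease values was not tested.

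Fcer1a had 0 reads in both BAT knockout libraries and 9, 3 and 9 reads in control. A count of 0 allows up to 0.185 and 0.201 CPM in the 2 knockout libraries (3 reads, counting error only), and the control libraries had 0.424, 0.188 and 0.472 CPM. Tpsab1 had 0 reads in knockout and 2, 2 and 3 reads in control, so a difference was not detectable at this depth. Kit and Hdc had higher means in knockout. Kit had 6.52 and 11.1 CPM in knockout, against 5.60, 6.90 and 7.13 CPM in control. Hdc had 4.80 and 3.08 CPM in knockout, against 2.26, 3.07 and 3.51 CPM in control. Both overlapped between genotypes, and neither passed (changes of 0.35 and 0.31, limma adjusted p = 0.413 and 0.464). Gata2 had 12.6 and 12.2 CPM in knockout, inside the control range, whose mean was 12.9 ± 0.844 CPM (SD, n = 3). Its change was -0.05, and 0.14 after TMM scaling.

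The ratios of Tpsb2 and Mcpt4 to Cma1 varied less over the libraries than those of Kit, Hdc and Gata2. The ratio of Tpsb2 to Cma1 stayed between 0.958 and 1.58 in all 28 libraries, a 1.65-fold range, while Cma1 itself ran from 0.861 to 396. Mcpt4 over Cma1 stayed between 0.918 and 1.59, and Cpa3 over Cma1 between 0.252 and 1.00. Kit over Cma1 ran from 0.0469 to 12.9, a 275-fold range, and Hdc over Cma1 from 0.0230 to 5.57. Between sets these ratios mix CPM and FPKM, which differ by gene length. Within the 6 eWAT libraries alone Tpsb2 over Cma1 ranged 1.19-fold, against 4.16-fold for Kit and 3.24-fold for Hdc. In isWAT Cpa3 over Cma1 ranged 2.25-fold, more than Hdc (2.17-fold) and Gata2 (1.92-fold) over Cma1. In eWAT Tpsb2 over Tpsab1 was 37.1, 45.7 and 47.8 in libraries labelled knockout, against 29.2, 26.4 and 31.9 in control. Mcpt4 over Cma1 was 1.16, 1.24 and 1.12 in libraries labelled knockout, against 0.918, 0.936 and 1.08 in control. These 2 ratios did not overlap between the groups. Kit over Cma1 did not either, at 0.0661 to 0.195 in libraries labelled knockout and 0.0469 to 0.0563 in control. The same held for Gata2 over Cma1, at 0.0503 to 0.152 in libraries labelled knockout and 0.01775 to 0.0227 in control. The ratios of Tpsb2, Cpa3 and Hdc to Cma1 overlapped in eWAT, and no ratio was tested.

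**Figure D5:**
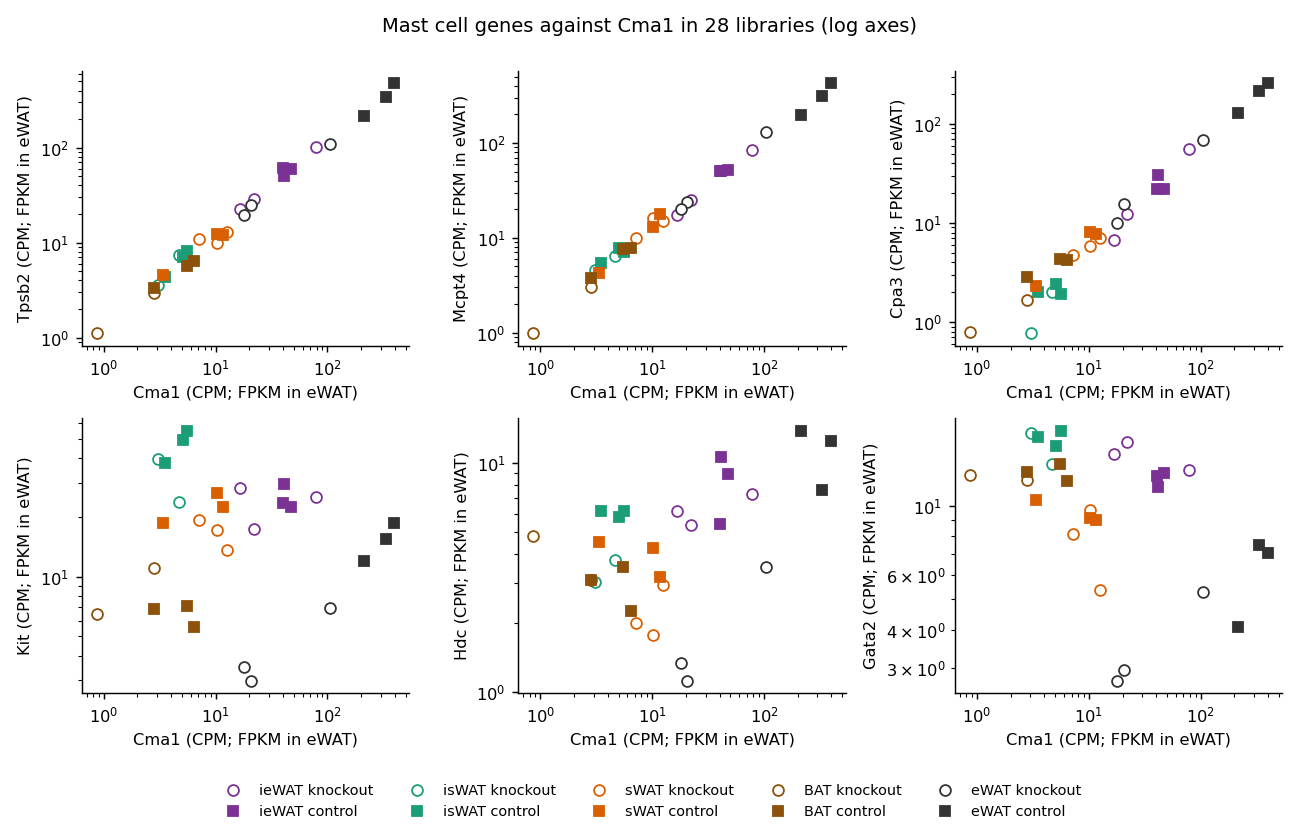
Tpsb2, Mcpt4, Cpa3, Kit, Hdc and Gata2 against Cma1 in the 28 libraries, on log axes, in CPM or, for eWAT, FPKM. Open circles are knockout and filled squares control, with a colour for each set. Tpsb2 and Mcpt4 lie near a line across the 5 sets, with Tpsb2 over Cma1 between 0.958 and 1.58. Cpa3 scatters more, and Kit, Hdc and Gata2 do not follow such a line.

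Likeness was also measured on the deviations of each library from the mean of its own set and genotype. Over the 28 libraries, the correlation with the mean of the 5 proteases was 0.899 for Fcer1a and 0.831 for Ms4a2, against 0.497 for Kit, 0.323 for Hdc and 0.279 for Gata2. Without eWAT (22 libraries) these were 0.815, 0.714, 0.178, 0.014 and -0.411. The proteases are part of the mean they are set against, so their own values, 0.882 to 0.989, are given as description. Non-members were compared only if they were at 1 or more in at least 14 of the 28 libraries, which left 13570 genes. This filter left out further mast cell genes such as Tph1, Mrgprb2, Slc18a2 and Tpsg1. Fcer1a, Tpsab1 and Ms4a2 themselves did not meet it. Among the 13570 genes, the non-members most like the protease mean were Nup214 (0.811), a nuclear pore component, Slc45a3 (0.763) and Il1rl1 (0.725). F3 (0.711), which is tissue factor, and Cxcl14 (0.703) came next. Hgsnat, Pdcd2l, Nfyc, Impa1 and Nrcam followed, at 0.697 to 0.684. This order depended on eWAT: without it Pi16, a progenitor marker, was at 0.882 (0.481 with it) and Alox5 at 0.792 (0.632 with it), both above Nup214 at 0.766. Slc45a3 and Il1rl1 belong to the list of further mast cell genes. Libraries share a set, a depth and a scaling, and a few high or low libraries carry much of each value.

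Across depots the level of the proteases differed widely in control tissue, though the sets were normalised separately and their levels are not tested here. Per kilobase of exon, control Cma1 averaged 39.4 ± 3.58 CPM in ieWAT, 4.33 ± 1.00 in isWAT, 7.73 ± 4.07 in sWAT and 4.50 ± 1.71 in BAT (SD, n = 3 each). The 3 sets other than ieWAT overlapped in their range, and ieWAT stood above them. Mcpt4 per kilobase averaged 46.2 ± 0.327 CPM in ieWAT, 6.14 ± 1.08 in isWAT, 10.5 ± 6.24 in sWAT and 5.77 ± 2.06 in BAT (SD, n = 3 each). In eWAT control, Cma1 averaged 314 ± 92.6 FPKM and Mcpt4 311 ± 115 FPKM (SD, n = 3 each). FPKM is also a value per length, but only the eWAT set is in that unit and its depth is unknown, so its levels are not compared with the other sets.

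Kit had another order. Per kilobase of exon it averaged 5.31 ± 0.990 CPM in isWAT control, 2.84 ± 0.423 in ieWAT, 2.53 ± 0.437 in sWAT and 0.734 ± 0.0925 in BAT (SD, n = 3 each), with isWAT highest and ieWAT and sWAT overlapping. Hdc per kilobase averaged 1.30 ± 0.412 CPM in ieWAT control, 0.947 ± 0.0362 in isWAT, 0.624 ± 0.110 in sWAT and 0.462 ± 0.0996 in BAT (SD, n = 3 each). Gata2 was more even across these sets, from 1.77 ± 0.145 CPM per kilobase in sWAT control to 3.07 ± 0.176 in isWAT (SD, n = 3 each). Within a tissue the members also differed: in ieWAT control, per kilobase of exon, Mcpt4, Cma1 and Tpsb2 stood at 46.2, 39.4 and 35.4 CPM, Cpa3 at 16.4, Fcer1a at 2.41, Tpsab1 at 1.02 and Ms4a2 at 0.383 CPM.

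Some of these genes have close relatives whose reads counting could split. In the GENCODE M21 transcripts, 0.6% of the 31-base words of Tpsb2 were found in another gene, Tpsab1, so the tryptase pair was separable. Of the words of Cma1, 10.6% were shared with Gm48934, and of Mcpt4 12.2% with other genes, mostly Cma2. Cma2 itself averaged 0.134 FPKM in knockout and 0.643 FPKM in control in eWAT. Kit, Cpa3, Fcer1a and Gata2 shared no such word with another gene.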

How the data were processed

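Total RNA of mouse fat was sequenced (Illumina HiSeq2000, per the labels' protocols). The submitters' processing notes name Salmon, FastQC, MultiQC and DESeq2 1.38.3 without their roles, and the genome build is not given in the sources used here. The ieWAT, isWAT, sWAT and BAT tables as deposited hold CPM: columns sum to 1000000 and 100% of values are whole reads within 0.01 reads. The deposited eWAT table holds FPKM, and a second deposited eWAT table holds TPM and was used as an alternative only. The last table, that TPM table times about 1 factor per column, was not used. Identifiers were matched to GENCODE M21 (92.01%, or 96.04% in ieWAT).

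Each set was fitted alone with limma 3.58.1 in R 4.3.3 on log2(value + 1), two-sided, with the trend and robust options of eBayes, for genes reaching 1 in at least the number of libraries of the smaller group. P-values were adjusted by Benjamini-Hochberg over all genes tested, with a threshold of 0.05. Alternatives were TMM scaling, pseudocounts of 0.1 and 0.5, no filter, eBayes without its options, a replicate block, each library left out in turn, the TPM table, and edgeR 4.0.16 and DESeq2 1.42.0 on reads recovered from the CPM. The fits were tested on simulated data. The 10 members and the marker lists were chosen with earlier results of these data known. The genes named are the members, genes of the lists that passed or had the smallest p, the 10 non-members most correlated with the protease mean, and Fgf13. Same-numbered knockout and control libraries had deviations correlated at -0.561 to 0.39, so the numbers were not taken as pairs. Intervals for a count of 0 allow 3 reads and cover counting error only.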

Additional observations from a re-analysis of the deposited data

Results flagged for a closer look

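Hdc, Gata2 and Tpsb2 had knockout libraries all on one side of the control mean in one set and all on the other side in another. The differences between sets were not tested. Each knockout library was below the control mean of Hdc in ieWAT, isWAT, sWAT and eWAT, with changes of -0.32, -0.69, -0.63 and -2.08, and above it in BAT, where the change was 0.31. For Gata2 each knockout library was above the control mean in ieWAT (0.24) and below it in BAT (-0.049) and eWAT (-0.64). For Tpsb2 each was above the control mean in sWAT (0.29), which includes a low library, control 3, and below it in BAT (-1.05) and eWAT (-3.08). Of these values, those of Hdc and Tpsb2 in eWAT passed in limma.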

How the results depend on the processing

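In eWAT each member's change stayed below 0 under each alternative that tested it. Calls did not: 0 to 9 members and 12 to 1819 genes were called when 1 library was left out, 2 members and 544 genes without the filter, and 0 members and 1 gene in the TPM table. With the replicate number as a block 0 members and 0 genes were called in eWAT, although the numbers do not pair the samples. The block gave 1 gene in ieWAT, 7 in isWAT, 1 in sWAT and 0 in BAT, and no member. DESeq2 called 33 genes in ieWAT, 251 in isWAT (with 1 member), 85 in sWAT and 691 in BAT. Leaving out 1 library gave 0 to 1 gene in ieWAT and 0 to 12 in isWAT. The same gave 1 to 120 genes in sWAT, and 0 to 2201 genes with 0 to 4 members in BAT. Without the filter 3 genes were called in isWAT, 5 in sWAT and 7 in BAT. With a pseudocount of 0.1 the count was 5 in sWAT and 0 in BAT. It was 0 in isWAT and in BAT without the eBayes options, and 0 in BAT by edgeR. The causes were not tested.

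Signs turned for members that had not passed. Leaving out 1 library at a time, changes in ieWAT ran from -0.54 to 0.098 for Tpsab1, -1.33 to 0.11 for Cpa3, -0.24 to 0.093 for Kit and -0.74 to 0.37 for Fcer1a. In isWAT they ran from -0.48 to 0.0027 for Cma1, -0.68 to 0.19 for Tpsb2 and -0.26 to 0.048 for Gata2. In sWAT they ran from -0.15 to 0.62 for Cma1, -0.13 to 0.51 for Tpsb2, -0.40 to 0.33 for Cpa3 and -0.17 to 0.76 for Mcpt4. In ieWAT edgeR gave 0.0044 for Cpa3 and 0.33 for Fcer1a, and DESeq2 0.32 for Fcer1a. In sWAT Cpa3 was -0.014 by edgeR and -0.012 by DESeq2. In BAT Gata2 was 0.14 after TMM scaling, 0.16 by edgeR and 0.15 by DESeq2. Depth limits Fcer1a, Ms4a2 and Tpsab1, which had at most 17 reads a library in isWAT, sWAT and BAT.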

Other observations

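Prg2, a granule protein of eosinophils, averaged in ieWAT 4.85 ± 1.57 CPM in knockout and 2.02 ± 0.974 CPM in control (SD, n = 3 each). Its groups did not overlap, as in 3.43% of all genes in this direction, and it did not pass in limma. B cell and lymph node markers summed to 130 to 240 CPM in ieWAT knockout and 42.3 to 141 CPM in control. T cell markers summed to 38.6 to 53.4 CPM in ieWAT knockout and 16.1 to 30.3 CPM in control, without overlap, and none of the 7 passed in limma. In eWAT Ccr3, a chemokine receptor of eosinophils, fell by 1.05 (limma adjusted p = 0.0489).

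Il33 had changes of 0.61 in ieWAT and 0.68 in sWAT, against -1.14 in eWAT, where alone it passed in limma. Alox5, a leukotriene synthesis enzyme, was below each control library in both isWAT knockout libraries, as were 19.4% of all genes tested there. It averaged 3.51 ± 0.128 CPM in knockout (n = 2) and 5.74 ± 0.544 CPM in control (n = 3, SD). Its change of -0.58 did not pass (limma adjusted p = 0.270).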
